A study of Mus musculus with 28 samples.

Results

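The comparison described here set *Hdc* heterozygous (het) mice against wild-type (WT) mice in the ventral striatum. It used 6 of the 28 RNA-seq libraries of the series, the WT libraries 1a, 2a and 3a and the het libraries 4a, 5a and 6a. Genes with more than 1 CPM (counts scaled by library size) in at least 2 of these 6 libraries were tested, which kept 13581 of 29878 listed genes. The CPM values of genes and lists given below were scaled by edgeR's TMM factors as well, while the filter was not. The series covered 4 brain regions (ventral striatum, dorsal striatum, hypothalamus and motor cortex) of WT, het and knockout (KO) mice, and the 2 KO libraries of the ventral striatum, 7a and 8a, are given only beside the comparison. The mice were males of 2 to 3 months from a line backcrossed onto C57Bl/6. By their labels, het mice carried a disrupted *Hdc* allele beside an intact copy, KO mice no intact copy and WT mice no disrupted copy. Which exons the disrupted allele lacks is not given in the sources used here. The digit in a library name was read as the mouse, which would make 8 mice in all, but the sources do not spell this out. P-values rest on the spread between libraries within the 12 groups of the series, not between known animals.

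*Hdc* encodes histidine decarboxylase, the enzyme that makes histamine from histidine. In the brain, histamine is made by neurons of the posterior hypothalamus whose axons reach most of the forebrain, the striatum included. The ventral striatum is built mainly of GABAergic spiny projection neurons of the direct and the indirect pathway, which carry dopamine receptors and histamine receptors.

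The WT libraries held 3536802 (1a), 3938980 (2a) and 3957874 (3a) counts on genes. The het libraries held 5064759 (4a), 4022814 (5a) and 4177055 (6a), so every het library was deeper than every WT library (p = 0.1 in an exact two-sided permutation test, which cannot give less with 3 libraries per genotype). Reads that aligned to more than a single place, which were not counted, made up 27.7%, 28.5% and 28.45% of the tallied reads in 1a, 2a and 3a and 29.1%, 29.5% and 29.5% in 4a, 5a and 6a (same test, exact p = 0.1). The share of uniquely aligned reads on exons was 80.5%, 79.8% and 80.0% in WT and 79.65%, 79.4% and 76.0% in het libraries (exact p = 0.1). Depth and both of these shares thus separated the genotypes without overlap, and their part in the results below was not tested.

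Markers of striatal tissue were present. The 16 genes of a spiny projection neuron list summed to 7165, 6940 and 4678 CPM in 1a, 2a and 3a and to 6562, 6087 and 6093 CPM in 4a, 5a and 6a. The median was 924 CPM in the WT hypothalamus and 16900 CPM in the WT dorsal striatum. The list thus marks striatum, not its ventral part. WT library 3a stood apart, with the lowest spiny neuron sum and the highest sum of 29 oligodendrocyte genes. Those oligodendrocyte sums were 5677, 4285 and 6303 CPM in 1a, 2a and 3a and 4435, 4694 and 5673 CPM in 4a, 5a and 6a. By leading log2 fold change over 500 genes, the nearest library came from the ventral striatum for 6 of 6 libraries. Among the 6 alone, the nearest library had the same genotype for 3 of 6. Library 1a was the farthest from the other 5, at a mean distance of 1.82, where the others lay at 1.39 to 1.52. Mean distances were 1.52 over 6 pairs within a genotype and 1.54 over 9 pairs across genotypes. Pairs of libraries within a group differed by a chi-square per degree of freedom of 2.07 to 6.26, so none of them are copies of each other. Het libraries 5a and 6a carried more counts of the choroid plexus gene *Ttr* (19.4 and 62.0 CPM) than the other 4 libraries (1.14 to 3.62 CPM).

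*Hdc*, the targeted gene, was higher in het than in WT libraries. It lies on chromosome 2 of GRCm38 (ENSMUSG00000027360, chr2:126593667-126619299, minus strand). The WT libraries 1a, 2a and 3a held 1, 6 and 0 *Hdc* counts (0.291, 1.61 and 0 CPM), and the het libraries 4a, 5a and 6a held 28, 20 and 23 (5.335, 5.25 and 5.53 CPM). All 3 het libraries were thus above all 3 WT libraries, and they lay close together. The means were 0.635 ± 0.861 CPM in WT and 5.37 ± 0.143 CPM in het libraries (SD, n = 3 each), and the log2 fold change was 3.02 (standard error 0.59, adjusted p = 1.75e-07, edgeR's likelihood ratio test with Benjamini-Hochberg adjustment over 13581 genes). Library 2a held 6 of the 7 WT counts. Without it WT held 1 count against 71 in het, a ratio of 39.2 (95% counting interval 6.81 to 1570; this and later intervals cover counting error only). Without 3a, which held no count, the log2 fold change was 2.42 (adjusted p = 0.00192, same edgeR test). In KO libraries *Hdc* was at 11.7 CPM (7a) and 12.9 CPM (8a). A loss of *Hdc* counts with the disrupted allele was therefore not seen here, and counts summed over the whole gene do not tell whether the exons that allele lacks were read. The genotypes are given as labelled throughout, and directions are between libraries labelled het and libraries labelled WT. In bulk tissue, more cells of a kind and more RNA per cell cannot be told apart, for *Hdc* or for any gene below.

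In all, 8 of 13581 genes (0.0589%) passed an adjusted p of 0.05 in het against WT. Of these, 6 were higher in het (0.0442% of the genes tested: *Pla2g4e*, *Hdc*, *Glra1*, *Tac2*, *Pcna-ps2* and *Gal*; the direction of *Pcna-ps2* was set by the filter), and 2 were lower (0.0147%: *Akap8l* and *Meg3*). At an unadjusted p under 0.05 there were 620 genes (4.57%), 295 higher and 325 lower. Libraries of the genotypes did not overlap for 824 genes with het above WT (6.07%) and 744 genes with het below WT (5.48%). Across all genes the log2 fold changes had a median of 0.00444, with quartiles at -0.13 and 0.13. edgeR's quasi-likelihood test called 2 genes and DESeq2's Wald test called 2, *Pla2g4e* and *Hdc* in both cases. With a library left out, the edgeR test called 4 without 1a, 8 without 2a, 3 without 3a, 8 without 4a, 5 without 5a and 3 without 6a. *Pla2g4e* and *Hdc* were called each time.

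**Figure D1:**
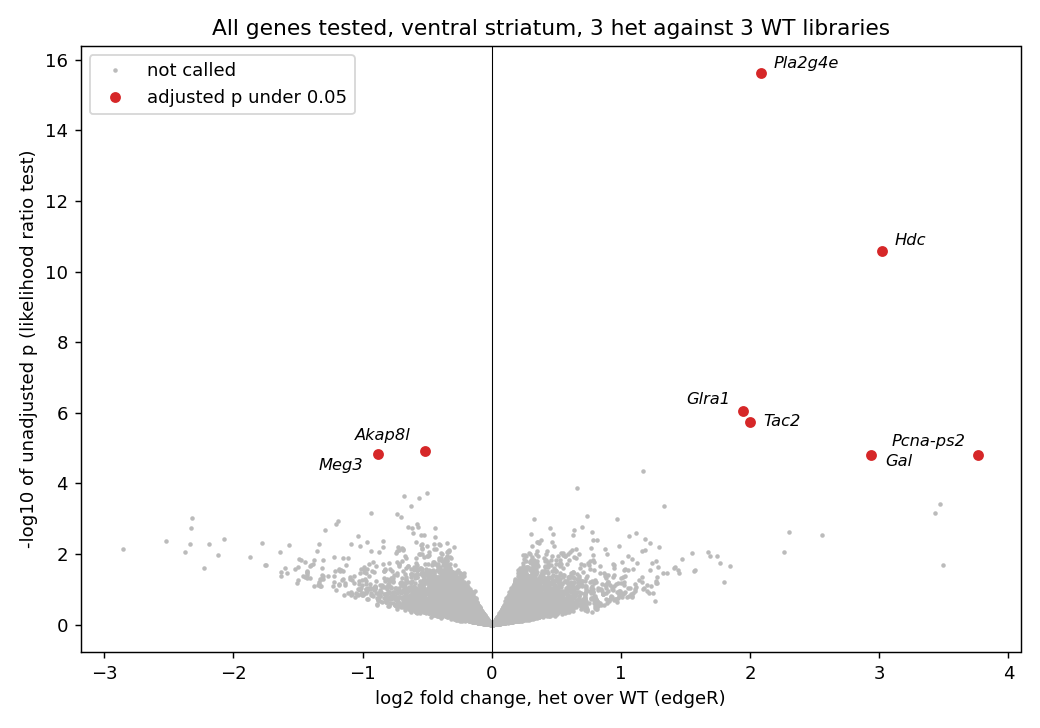
Log2 fold change of het over WT (horizontal axis) against -log10 of the unadjusted p of edgeR's likelihood ratio test (vertical axis) for the 13581 genes tested in the ventral striatum. The 8 genes past an adjusted p of 0.05 are in red, 6 to the right of 0 and 2 to the left. The fitted value of *Pcna-ps2* rests on 1 WT count.

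*Pla2g4e*, a cytosolic phospholipase A2 family enzyme that transfers acyl chains to make N-acyl phospholipids, had the smallest p of all genes. It lies on chromosome 2 (chr2:120166412-120245335, minus strand), at -6.348 Mb from *Hdc*. The WT libraries 1a, 2a and 3a were at 3.496, 3.498 and 3.88 CPM, and the het libraries 4a, 5a and 6a at 16.01, 15.5 and 14.9 CPM. The libraries of each genotype were tightly grouped and the groups were far apart. The log2 fold change was 2.08 (standard error 0.28, adjusted p = 3.35e-12, edgeR's likelihood ratio test). KO libraries were higher again, at 29.5 CPM (7a) and 33.2 CPM (8a). Of its 6960 exon bases, 153 are shared with another annotated transcript on the same strand, *Gm13997*.

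**Figure D2:**
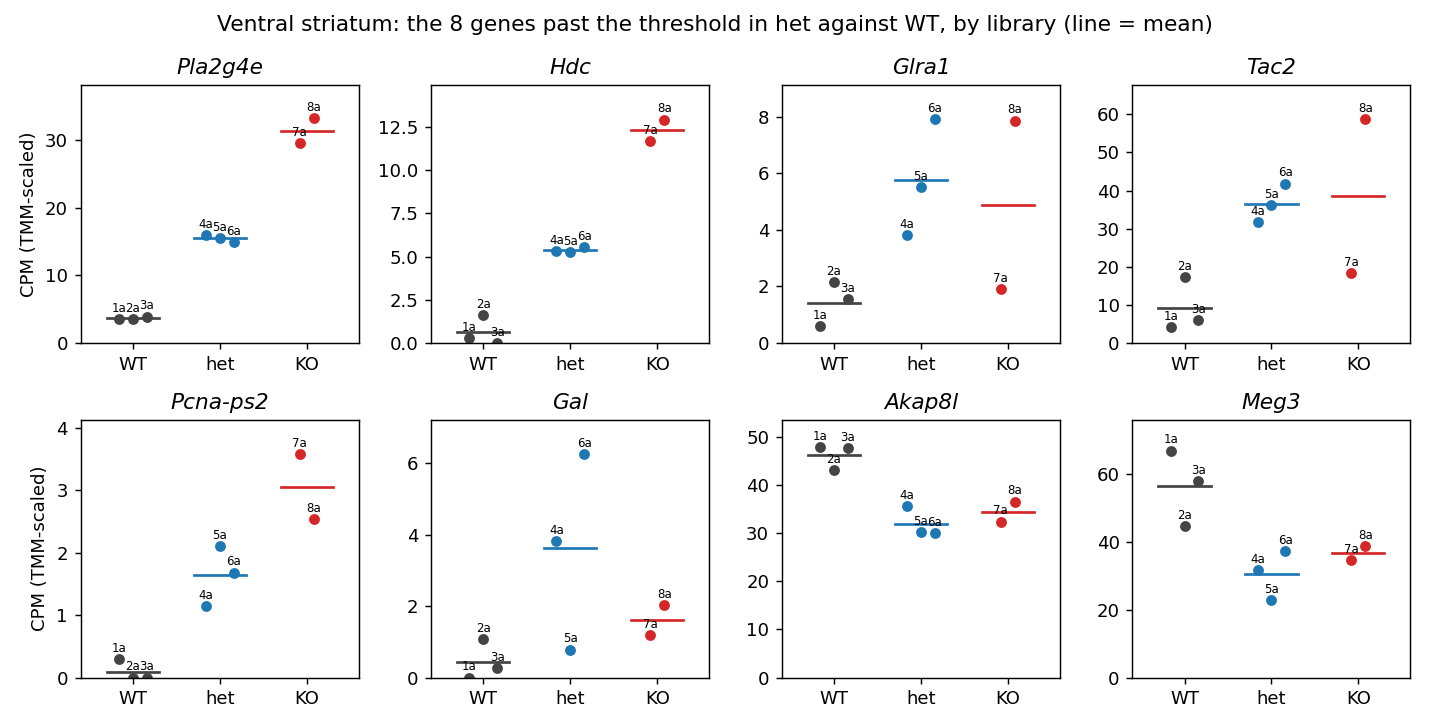
TMM-scaled CPM (vertical axis, from 0) of the 8 genes past the threshold, 1 point per library with its name, in WT, het and KO ventral striatum, with lines at the means. Het libraries of *Pla2g4e* sit between 14.9 and 16.01 CPM, all above WT and below KO; the WT and het points of *Gal* overlap.

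3 further genes that were higher in het libraries encode parts of neuronal signalling. *Tac2*, the precursor of the neuropeptide neurokinin B, was at 4.08, 17.2 and 5.95 CPM in the WT libraries 1a, 2a and 3a and at 31.6, 36.2 and 41.8 CPM in the het libraries 4a, 5a and 6a. WT library 2a was the highest of its group, yet below every het library. The log2 fold change was 2.00 (standard error 0.41, adjusted p = 0.00638, edgeR's likelihood ratio test). Without 1a it was 1.66 (adjusted p = 0.254), without 3a 1.77 (adjusted p = 0.233) and without 6a 1.89 (adjusted p = 0.154), all from the same edgeR test. Without 2a it was 2.86 (adjusted p = 1.23e-06, same edgeR test). The KO libraries were unlike each other, at 18.3 CPM (7a) and 58.8 CPM (8a).

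*Glra1*, an alpha subunit of the inhibitory glycine receptor, was at 0.583, 2.15 and 1.55 CPM in 1a, 2a and 3a and at 3.81, 5.51 and 7.93 CPM in 4a, 5a and 6a. The groups did not overlap, and 6a was the highest library. The log2 fold change was 1.94 (standard error 0.44, adjusted p = 0.00407, edgeR's likelihood ratio test). It was 1.60 without 1a (adjusted p = 0.254), 2.00 without 3a (adjusted p = 0.056) and 1.64 without 6a (adjusted p = 0.309) in the same edgeR test. An antisense gene, *Gm12236*, shares 141 of its 2414 exon bases, and since the strand setting of the counting is not given in the sources used here, reads of the pair cannot be told apart there.

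*Gal*, the precursor of the neuropeptide galanin, held 0, 4 and 1 counts in the WT libraries 1a, 2a and 3a (0, 1.076 and 0.259 CPM) and 20, 3 and 26 counts in the het libraries 4a, 5a and 6a (3.81, 0.787 and 6.25 CPM). The groups overlapped, because het library 5a lay below WT library 2a. The log2 fold change was 2.94 (standard error 0.79, adjusted p = 0.027, edgeR's likelihood ratio test). In the same edgeR test it was 2.42 without 1a (adjusted p = 0.572), 2.65 without 3a (adjusted p = 0.387), 2.90 without 4a (adjusted p = 0.0958) and 2.34 without 6a (adjusted p = 0.737). Without 2a the call held (adjusted p = 0.00896, same edgeR test), and WT was left with 1 *Gal* count against 49 in het libraries.

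*Gal* is also a member of a list of hypothalamic neuron genes, which would mark tissue from the neighbouring region. Of its 11 genes, 3 reached the filter (*Trh*, *Gal* and *Avp*), and 1 of these was called, beside 0.0589% of all genes. *Trh* and *Gal* had log2 fold changes above 0. Every 1 of the 8 others had counts somewhere in the 6 libraries, but too few to be tested. The 3 tested genes summed to 2.04, 4.305 and 0.776 CPM in 1a, 2a and 3a and to 10.3, 3.67 and 9.37 CPM in 4a, 5a and 6a, where the WT hypothalamus had a median of 64.5 CPM. *Trh*, the precursor of thyrotropin-releasing hormone and the most abundant of the 3, was at 2.04, 2.96 and 0.517 CPM in WT and 4.57, 2.36 and 1.92 CPM in het libraries. *Avp*, the vasopressin precursor, held 1 count in WT and 17 in het libraries, a ratio of 14.2 (95% counting interval 2.22 to 592), and no WT library had more than 1 CPM of it, so the filter itself set its direction. In WT hypothalamus the means were 21.3 CPM for *Tac2*, 45.8 CPM for *Glra1* and 13.4 CPM for *Gal*. Whether tissue of another region had a part in the values of *Tac2*, *Glra1* and *Gal* was not tested.

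The called genes lower in het libraries were *Akap8l* and *Meg3*. *Akap8l*, a nuclear protein of the A-kinase anchoring family, was at 47.8, 43.05 and 47.6 CPM in 1a, 2a and 3a and at 35.6, 30.2 and 30.0 CPM in 4a, 5a and 6a. All het libraries were below all WT libraries. The log2 fold change was -0.52 (standard error 0.12, adjusted p = 0.027, edgeR's likelihood ratio test). Without 1a it was -0.49 (adjusted p = 0.254), without 3a -0.50 (adjusted p = 0.233), without 5a -0.48 (adjusted p = 0.327) and without 6a -0.47 (adjusted p = 0.404) in the same edgeR test.

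*Meg3*, an imprinted long noncoding RNA expressed from the maternal chromosome, was at 67.0, 44.7 and 57.9 CPM in 1a, 2a and 3a and at 31.6, 22.8 and 37.25 CPM in 4a, 5a and 6a. The groups did not overlap, and 5a was the lowest library. The log2 fold change was -0.88 (standard error 0.20, adjusted p = 0.027, edgeR's likelihood ratio test). In the same edgeR test it was -0.74 without 1a (adjusted p = 0.567), -0.86 without 3a (adjusted p = 0.233), -0.91 without 4a (adjusted p = 0.113) and -0.71 without 5a (adjusted p = 0.825). *Gm26906*, on the opposite strand, shares 1228 of the 18089 exon bases of *Meg3*, and reads of the pair cannot be told apart there.

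*Meg3* was the called gene in a list of nuclear long noncoding RNAs, of which 5 were tested, 4 with log2 fold changes below 0. That is 1 of 5 called, beside 0.0589% of all genes, and 3 of 5 had an unadjusted p under 0.05, beside 4.57%. The list's median was -0.43 (-0.66 without 4a, -0.29 without 5a) beside 0.00444 for all genes. Its most abundant gene, *Malat1*, was at 2243, 1994 and 1479 CPM in 1a, 2a and 3a and 1596, 962 and 1423 CPM in 4a, 5a and 6a. Its groups overlapped, with 5a again the lowest (log2 fold change -0.52, standard error 0.17, adjusted p = 0.874 in edgeR's likelihood ratio test). *Snhg11* was at 1349, 1217 and 1375 CPM in WT and 1261, 772 and 891 CPM in het libraries. The sums of the list were 3695, 3289 and 2951 CPM in 1a, 2a and 3a and 2928, 1782 and 2384 CPM in 4a, 5a and 6a. The share of uniquely aligned reads outside exons, a measure that moves with unspliced RNA, was 18.8%, 19.5% and 19.2% in WT and 19.6%, 19.9% and 23.3% in het libraries. Its part in these values was not tested.

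*Pcna-ps2* is a processed pseudogene on chromosome 19 (chr19:9283380-9284160) of *Pcna*, which encodes the sliding clamp of DNA replication and lies on chromosome 2, 5.63 Mb from *Hdc*. The annotated transcripts are 99.2% identical over 781 aligned bases, with 6 mismatches, so the counts of both genes are uncertain. Of the 50-base windows of the pseudogene, the length of the reads, 63.8% occur unchanged in the *Pcna* transcript, and a read from these cannot be placed uniquely. The coding stretch below, from GENCODE M21 on GRCm38, is the first 50-base window with the most mismatches between them and shows how few bases decide where a read is counted; capitals mark the bases that differ.
Pcna: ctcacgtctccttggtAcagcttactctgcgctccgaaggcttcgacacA
Pcna-ps2: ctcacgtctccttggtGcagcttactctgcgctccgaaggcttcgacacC
*Pcna-ps2* held 1, 0 and 0 counts in the WT libraries 1a, 2a and 3a and 6, 8 and 7 counts in the het libraries 4a, 5a and 6a, and no WT library had more than 1 CPM, so the filter itself set its direction and its test adds nothing on that. With 1 count in WT and 21 in het the ratio was 17.5 (95% counting interval 2.81 to 724; adjusted p = 0.027 in edgeR's likelihood ratio test). That call was lost in the same edgeR test without 2a (adjusted p = 0.343), without 3a (adjusted p = 0.387), without 5a (adjusted p = 0.327) and without 6a (adjusted p = 0.185). Without 1a the WT libraries held 0 counts (adjusted p = 0.0481, same edgeR test). *Pcna* itself was at 13.1, 16.7 and 14.7 CPM in 1a, 2a and 3a and 8.96, 11.02 and 6.97 CPM in 4a, 5a and 6a. All het libraries were below all WT libraries, but the difference did not pass the threshold (log2 fold change -0.73, standard error 0.22, adjusted p = 0.539, edgeR's likelihood ratio test). The pseudogene took 0.606% of the summed counts of both genes in WT, 15.1% in het and 30.9% in KO libraries. Counted as a single gene, an alternative chosen after seeing the data, the pair was at 14.8 CPM in WT and 10.6 CPM in het libraries (log2 fold change -0.50, standard error 0.21, adjusted p = 1, edgeR's likelihood ratio test).

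*Hdc* and *Pla2g4e* share a stretch of chromosome 2, so the genes around them were taken as a list. Within 10 Mb of *Hdc*, 189 of 321 other annotated genes were tested, and 1 of them (*Pla2g4e*) was called, beside 0.0589% of all genes. *Pla2g4e* helped prompt the list, so its call adds nothing on the region. At an unadjusted p under 0.05 there were 19 (10.1%, beside 4.57% of all genes), 11 higher and 8 lower in het. *Pla2g4e* and *Avp* are among these 19, so the share is no independent test of the region. Het libraries lay above all WT libraries for 19 of the 189 genes and below for 6, beside 6.07% and 5.48% of all genes. Of the 189, 6 passed the filter through 1 genotype only, *Avp* among them. The median log2 fold change of all 189 was -0.0035, and between -0.014 and 0.041 with a library left out. *Sord*, sorbitol dehydrogenase of the polyol pathway, lies at -4.328 Mb from *Hdc* and was at 2.62, 2.69 and 3.36 CPM in 1a, 2a and 3a and 5.335, 7.87 and 6.97 CPM in 4a, 5a and 6a. Its groups did not overlap, and its log2 fold change of 1.17 (standard error 0.30) missed the threshold (adjusted p = 0.0692, edgeR's likelihood ratio test), while without 4a it was 1.34 (adjusted p = 0.0313, same edgeR test). Effects of the genotype and of sequence linked to the disrupted allele cannot be told apart in these libraries. The most abundant genes there, *Map1a* (a microtubule-associated protein), *Rasgrp1* (a Ras activator) and *Prnp* (the prion protein), had log2 fold changes of 0.14, -0.015 and 0.029.

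**Figure D3:**
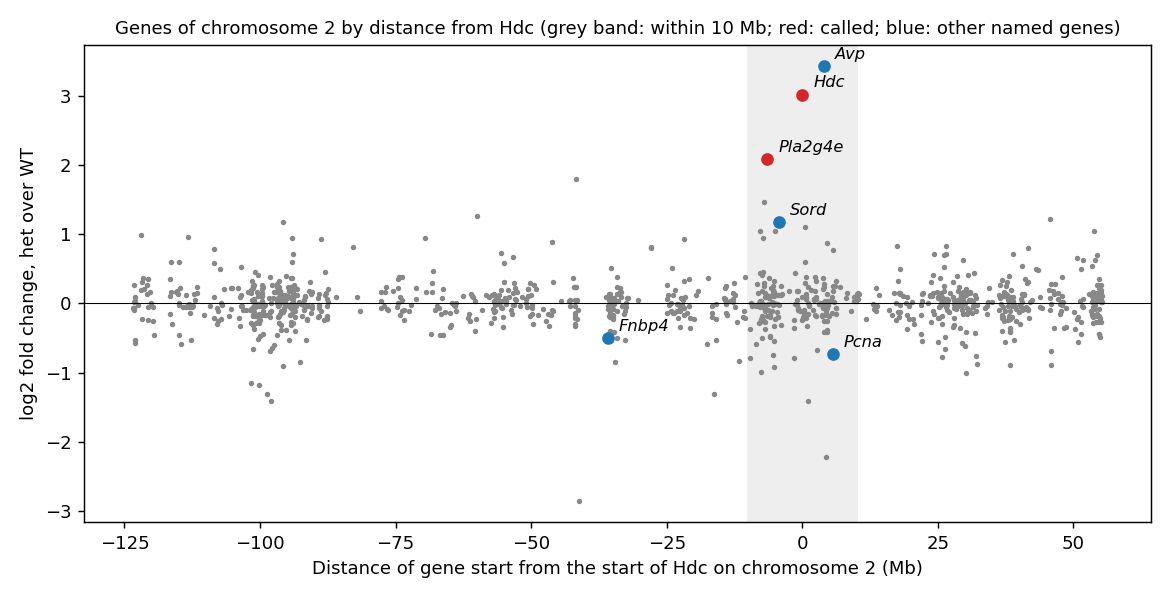
Log2 fold change of het over WT (vertical axis) of the tested genes of chromosome 2 by the distance of their start from the start of *Hdc* in Mb (horizontal axis); the band marks 10 Mb on either side. *Hdc* (3.02) and *Pla2g4e* (2.08), in red, were called. *Sord*, *Pcna*, *Avp* and *Fnbp4*, in blue, were not, and *Avp* rests on 1 WT count.

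Among the 10 genes with the smallest p in each direction, 12 did not pass the threshold. Besides *Sord*, the higher ones were *Zfp316*, *Gm9733* and *Mybl1*. *Zfp316*, a zinc finger protein, was at 11.1, 10.8 and 11.6 CPM in 1a, 2a and 3a and at 17.9, 16.8 and 18.3 CPM in 4a, 5a and 6a, with both groups narrow and well apart (log2 fold change 0.66, standard error 0.18, adjusted p = 0.189, edgeR's likelihood ratio test). *Gm9733* held 1 count in WT and 17 in het libraries, a ratio of 14.2 (95% counting interval 2.22 to 592), and no WT library had more than 1 CPM of it. *Mybl1*, a transcription factor of the Myb family, was at 0.583, 1.61 and 2.33 CPM in WT and 4.76, 3.94 and 2.88 CPM in het libraries (log2 fold change 1.33).

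The lower ones, besides *Pcna*, were *Fnbp4* (a formin-binding protein, log2 fold change -0.50), *Spag7* (-0.68), *Stxbp2* (a syntaxin-binding protein of vesicle fusion, -0.57), *Mir124a-1hg* (the host transcript of a neuronal microRNA, -0.62), *Mrps31* (a mitochondrial ribosomal protein, -0.94), *Arl13b* (a GTPase of cilia, -0.70) and *Ccbe1* (a secreted factor of lymphatic growth). *Ccbe1* held 18 counts in WT and 4 in het libraries, and no het library had more than 1 CPM of it. For each of these 7 genes the het libraries lay below all WT libraries, as for 5.48% of all genes. For *Ccbe1* the filter itself set the direction. The 7 genes were chosen by their small p, so nothing is read from this. Leaving out a library brought 2 of them past the threshold in the edgeR test: *Fnbp4* without 2a (log2 fold change -0.62, adjusted p = 0.0162) and *Mir124a-1hg* without 4a (log2 fold change -0.82, adjusted p = 0.0408). Of all genes tested, 52 passed the filter with no WT library above 1 CPM and 160 with no het library above it.

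The other members of the histamine pathway did not pass the threshold. Of 12 listed genes, 10 were tested, 1 was called (*Hdc*; beside 0.0589% of all genes), and the log2 fold changes were above 0 in 5 and below 0 in 5, with a median of 0.0009 (0.12 without 3a). *Hrh3*, the receptor that restrains histamine release and is found on spiny neurons, was the most abundant at 95.9, 108 and 71.1 CPM in 1a, 2a and 3a and 106, 95.2 and 95.4 CPM in 4a, 5a and 6a. The het libraries lay inside the WT range. *Hrh1* was at 3.496, 3.498 and 4.40 CPM in WT and 4.38, 7.08 and 6.49 CPM in het libraries (log2 fold change 0.63, standard error 0.35, adjusted p = 1, edgeR's likelihood ratio test). *Hrh2* had a log2 fold change of -0.058. *Hnmt*, which methylates histamine and is the main route of its breakdown in brain, was at 9.91, 9.69 and 10.9 CPM in WT and 9.53, 9.45 and 9.61 CPM in het libraries, which lay just below all WT libraries (log2 fold change -0.093, standard error 0.21). The monoamine oxidases *Maoa* and *Maob*, which act on its product, had log2 fold changes of -0.11 and -0.025. The vesicular transporter *Slc18a2* and the uptake transporters *Slc22a3* and *Slc29a4* had 0.32, 0.027 and -0.077, and without 2a *Slc22a3* had 0.60. *Aoc1*, diamine oxidase, was at 0 counts in the 6 libraries, and *Hrh4* was too low to test.

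The spiny neuron lists had medians close to that of all genes, which moved with library 3a. None of the 16 shared spiny neuron genes was called by edgeR's likelihood ratio test, and 0 had an unadjusted p under 0.05; 8 were above 0 and 8 below, with a median log2 fold change of -0.0014 (-0.18 without 3a, 0.097 without 1a). The most abundant were *Arpp21*, a cAMP-regulated phosphoprotein (-0.13), *Pde10a*, the phosphodiesterase of the striatum (0.19), and *Gnal*, the G protein that couples dopamine receptors to adenylyl cyclase (0.028). Of the 6 direct pathway genes 3 were above 0 and 3 below, with a median of 0.0032. Leaving out a library moved that median to between -0.16 (without 3a) and 0.13. The dopamine receptor *Drd1* was at 111, 123 and 89.5 CPM in 1a, 2a and 3a and 114, 106 and 110 CPM in 4a, 5a and 6a. The 5 tested indirect pathway genes were all below 0, with a median of -0.051 (-0.24 without 3a, 0.076 without 1a), and *Drd2* was at 209, 200.7 and 150 CPM in WT and 184, 193 and 177 CPM in het libraries. In each of these 5 named genes the het libraries lay inside the WT range, where library 3a was the lowest. The 14 dopamine and cAMP signalling genes had a median of 0.0072, with 7 on each side of 0. With a library left out that median ran from -0.17 (without 3a) to 0.073.

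The remaining neuronal lists held no called gene either. The 6 tested ventral striatum regional genes had a median log2 fold change of -0.024 (2 above 0), and the 3 dorsal striatum regional genes 0.20 (2 above 0; 0.10 without 1a). The 11 tested interneuron genes had a median of 0.072 (6 above 0; 0.29 without 2a, -0.062 without 1a). In that list *Nos1*, neuronal nitric oxide synthase, was at 97.6, 136 and 105.5 CPM in WT and 137, 161 and 157 CPM in het libraries, which did not overlap (log2 fold change 0.42, standard error 0.16, adjusted p = 1, edgeR's likelihood ratio test). *Sst* and *Npy*, neuropeptides that share an interneuron class with it, had log2 fold changes of -0.13 and -0.13 (standard errors 0.14 and 0.16), each with the het libraries just below all WT libraries. The 8 cortical excitatory neuron genes had a median of 0.046, with 5 above 0. With a library left out it ran from -0.047 (without 6a) to 0.19. The 6 septum and basal forebrain genes had a median of -0.013 (0.15 without 2a, -0.27 without 1a), with 2 above 0.

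Among glial lists, oligodendrocyte genes lay mostly below 0 and astrocyte genes mostly above, and edgeR's likelihood ratio test called 0 genes in either. Of 29 oligodendrocyte genes 22 were below 0, with a median of -0.16, and 1 had an unadjusted p under 0.05. *Mbp*, which encodes myelin basic protein, was at 1734, 1215 and 1949 CPM in 1a, 2a and 3a and 1186, 1358 and 1789 CPM in 4a, 5a and 6a. The groups overlapped. Without 3a, the WT library with the highest oligodendrocyte sum, the list's median was -0.024. The lowest median with a library left out was -0.28. Of 12 astrocyte genes 11 were above 0, with a median of 0.11, and het libraries lay above all WT libraries for 5 and below for 1, beside 6.07% and 5.48% of all genes. *Slc1a2*, the main glutamate transporter of astrocytes, was at 4491, 4247 and 4148 CPM in WT and 4575, 4734 and 4671 CPM in het libraries (log2 fold change 0.12, standard error 0.12). The 7 oligodendrocyte precursor genes had a median of 0.043 (4 above 0; -0.012 without 1a), and the 13 microglia genes 0.074 (9 above 0; -0.025 without 3a).

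Vascular and border cell lists were small and uneven. The 12 endothelial genes had a median of -0.01 with 6 on each side of 0, and of 0.058 without 2a. All 7 tested mural cell genes were below 0, with a median of -0.39 (-0.56 without 1a, -0.24 without 3a) and 3 at an unadjusted p under 0.05, beside 4.57% of all genes. The most abundant, the pericyte gene *Rgs5*, was at 142.5, 105 and 125 CPM in WT and 103, 118 and 131 CPM in het libraries, with overlapping groups (log2 fold change -0.084; -0.18 to 0.026 with a library left out). The members farthest from 0, the smooth muscle genes *Myh11* (-0.97) and *Acta2* (-0.99), overlapped between genotypes, and edgeR's likelihood ratio test called *Myh11* without 1a. The 1 member that did not overlap, *Pdgfrb*, the receptor that marks pericytes, was at 21.9, 22.6 and 23.5 CPM in WT and 14.9, 18.6 and 18.98 CPM in het libraries (log2 fold change -0.39, standard error 0.16, adjusted p = 1, edgeR's likelihood ratio test). Mural sums were 199, 187 and 233 CPM in WT and 162.5, 174.5 and 185.5 CPM in het libraries.

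The 8 tested choroid plexus genes had a median of 0.81 (7 above 0; 1 gene passed the filter through 1 genotype only), and 0.32 without 6a. *Ttr*, transthyretin, the most abundant, was at 1.75, 1.88 and 3.62 CPM in 1a, 2a and 3a and 1.14, 19.4 and 62.0 CPM in 4a, 5a and 6a. Library 6a, and to a smaller degree 5a, carried the high values, while 4a was the lowest of the 6. Its log2 fold change was 3.49 (adjusted p = 1, edgeR's likelihood ratio test) and 2.08 without 6a, while a fit of only these 6 libraries called it (adjusted p = 0.0121, same edgeR test). Choroid sums were 26.5, 28.3 and 31.0 CPM in WT and 26.9, 50.6 and 98.05 CPM in het libraries. The 4 ependymal genes were all below 0, with a median of -0.23 that was -0.51 without 4a, -0.43 without 5a, -0.083 without 6a and 0.32 with no filter, which let in more of the 9 genes listed. The 9 leptomeningeal fibroblast genes had a median of 0.22 (5 above 0; 1 passed the filter through 1 genotype only), and of -0.11 without 1a and -0.053 without 5a. The 5 red blood cell genes had a median of 0.27 (4 above 0; 0.54 without 1a, 0.082 without 6a). Their part in the called genes was not tested.

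Genes that follow neuronal activity, time of day or stress were described likewise. Of 16 immediate early genes 13 were above 0, with a median of 0.22 (0.36 without 2a, 0.13 without 5a), and 0 were called by edgeR's likelihood ratio test or had an unadjusted p under 0.05. *Egr1*, the most abundant, was at 218, 397 and 214 CPM in 1a, 2a and 3a and 352, 374 and 251 CPM in 4a, 5a and 6a. High libraries (2a, 4a, 5a) and low libraries (1a, 3a, 6a) were found in both genotypes. The list's sums were 403.5, 668 and 398 CPM in WT and 623, 644 and 470 CPM in het libraries. They had the same order, which is no separate result, since *Egr1* makes up much of the sums of the list. Of its other members, *Fosb* was above all WT libraries in the het libraries, at 14.3, 10.2 and 8.02 CPM in WT and 16.6, 14.95 and 16.3 CPM in het (log2 fold change 0.56, standard error 0.30), and *Fos* (0.79), *Arc* (0.41), *Nr4a1* (0.42), *Fosl2* (0.25), *Egr3* (0.21), *Egr4* (0.27), *Sik1* (0.16), *Dusp1* (0.15), *Junb* (0.064), *Btg2* (0.014), *Jun* (-0.060), *Egr2* (-0.20), *Npas4* (-0.28) and *Ier2* (0.72) overlapped. Without 2a, the value was 1.43 for *Fos*, 0.85 for *Arc*, 0.95 for *Nr4a1* and 0.60 for *Egr1*. Without 3a *Egr1* was at 0.080, and *Ier2* was left with 1 WT count. The 15 circadian clock genes had a median of -0.046 (6 above 0; 0.046 without 2a). The 7 glucocorticoid response genes had a median of 0.31 (6 above 0; 0.19 without 4a), with *Sgk1*, a kinase induced by corticosteroids, at 39.6, 47.1 and 37.0 CPM in WT and 63.5, 79.8 and 37.0 CPM in het libraries. The 4 Y-linked genes were detected in all 6 libraries and had a median of 0.11 (2 above 0; -0.029 without 2a).

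Protein-coding genes of the mitochondrial genome, a list added after seeing the data, had log2 fold changes below 0 in 10 of the 10 that were tested, with a median of -0.17 (-0.089 without 3a, -0.23 without 5a), and 0 were called by edgeR's likelihood ratio test, while 1 had an unadjusted p under 0.05. Their sums were 55410, 53540 and 58170 CPM in 1a, 2a and 3a and 48990, 52990 and 49000 CPM in 4a, 5a and 6a. All 3 het libraries were below all 3 WT libraries.

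**Figure D4:**
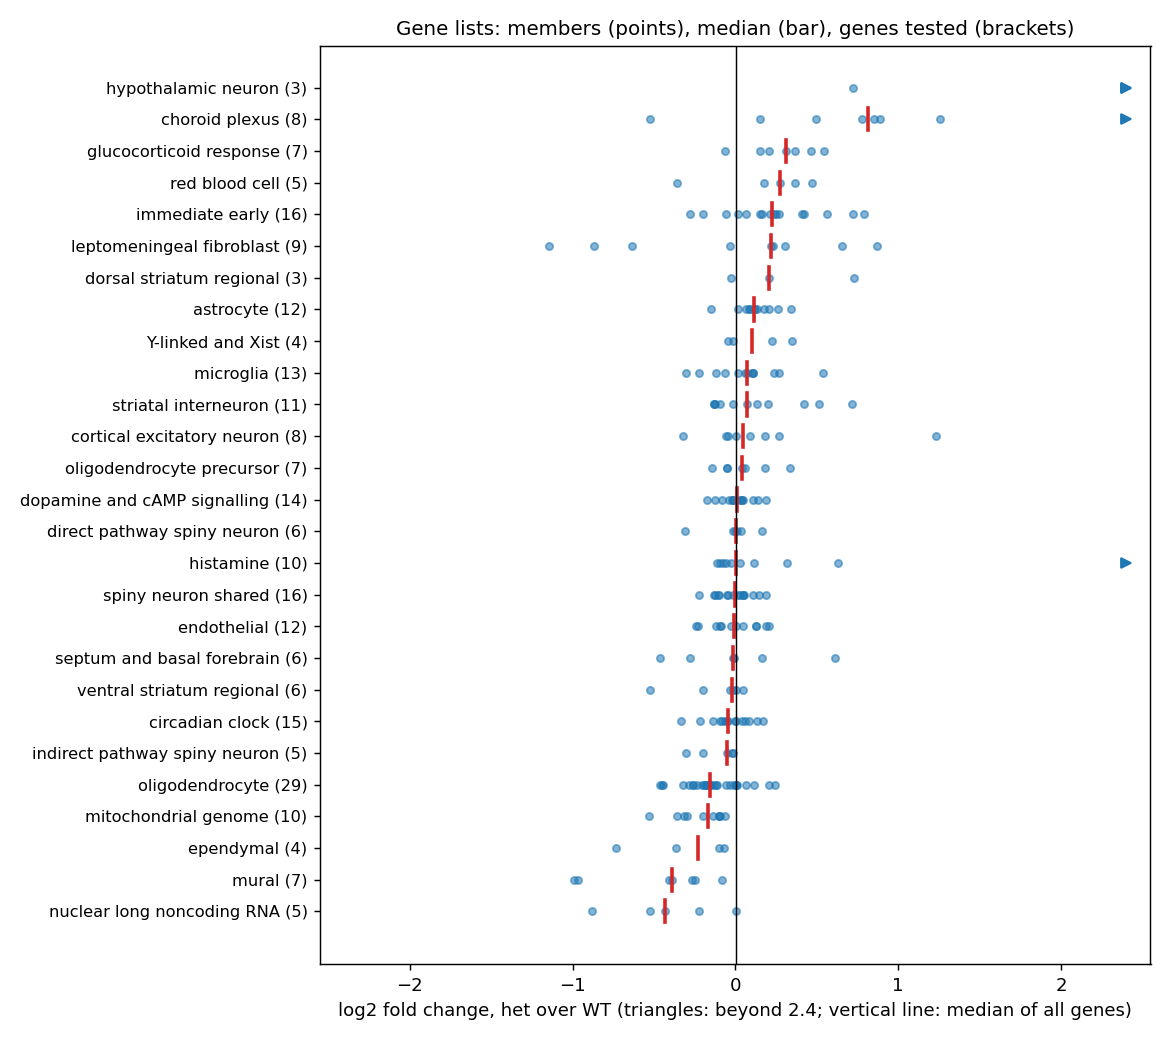
Log2 fold change of het over WT (horizontal axis) of the tested members of each list (points; triangles lie beyond 2.4) and their median (bar); brackets give the number tested, and the vertical line is the median of all genes at 0.00444. Of the bars drawn, those of nuclear long noncoding RNAs (-0.43) and mural genes (-0.39) are lowest and that of choroid plexus genes (0.81) highest. The hypothalamic list has no bar because 1 of its 3 genes rests on 1 WT count, so it is outside this ranking.

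KO against WT shares the 3 WT libraries with the comparison above, so its values are given side by side and no overlap is read from them. In KO against WT, 12 of 13581 genes (0.0884%) were called. The log2 fold changes of KO over WT were 3.10 for *Pla2g4e*, 4.21 for *Hdc*, 2.08 for *Tac2*, 1.71 for *Glra1*, 1.76 for *Gal*, -0.42 for *Akap8l* and -0.62 for *Meg3*. Of these, *Pla2g4e*, *Hdc* and *Tac2* were called in KO (adjusted p = 1.23e-31, 1e-20 and 0.00633, edgeR's likelihood ratio test). The KO call of *Tac2* was lost with the quasi-likelihood test, with DESeq2, without 1a and without 3a. *Pcna-ps2*, with 15 and 10 counts in 7a and 8a against 1 in the WT libraries, was also called in KO (adjusted p = 1.31e-05, edgeR's likelihood ratio test), though not by DESeq2. Among the 8 genes called in het, the het mean lay between the WT and KO means for 4 (*Pla2g4e*, *Hdc*, *Tac2* and *Pcna-ps2*). For *Tac2* this rested on KO library 8a, since 7a (18.3 CPM) lay below every het library. These genes were chosen by their het call and share the WT libraries, so nothing is read from this count.

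Differences between regions were tested as the het against WT effect in the ventral striatum minus that in another region. Against the dorsal striatum, 0 genes were called by edgeR's likelihood ratio test (0% of 13581; 611 at an unadjusted p under 0.05; 0 by the quasi-likelihood test and 0 by DESeq2). Against the hypothalamus, 1 gene was called by edgeR's likelihood ratio test (0.00736%; 467 at an unadjusted p under 0.05), and it was *Hdc*. The quasi-likelihood test called 0 (lowest adjusted p 0.118) and DESeq2 called 1, again *Hdc*. In the WT hypothalamus *Hdc* was at 15.2, 18.9 and 16.9 CPM and in the het hypothalamus at 14.5, 21.7 and 15.1 CPM, overlapping groups whose log2 fold change was 0.0048 (standard error 0.18). In the dorsal striatum *Hdc* held 3 and 0 counts in WT and 33, 17 and 21 in het libraries, a ratio of 14.5 (95% counting interval 4.75 to 71.8).

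*Pla2g4e* was at 2.83 ± 0.164 CPM in WT (SD, n = 2) and 14.8 ± 2.78 CPM in het (SD, n = 3) in the dorsal striatum, a log2 fold change of 2.35 (standard error 0.35). In the hypothalamus it was at 6.53 ± 2.54 and 19.7 ± 0.898 CPM (SD, n = 3 each), a log2 fold change of 1.61 (standard error 0.20). *Akap8l* had log2 fold changes of -0.47 (standard error 0.13) in the dorsal striatum and -0.54 (standard error 0.12) in the hypothalamus, close to its -0.52 in the ventral striatum. *Meg3* had -0.85 (standard error 0.23) and -0.34 (standard error 0.21). *Pcna-ps2* held 2 counts in WT and 24 in het libraries of the hypothalamus, a ratio of 12.5 (95% counting interval 3.09 to 109; adjusted p = 0.00602, edgeR's likelihood ratio test). In the dorsal striatum it held 0 in WT and 15 in het libraries, which is 3.06-fold against a floor of 3 counts over the WT group, while the lower 95% counting limit of the ratio was 2.19. *Pcna-ps2* was not called there (adjusted p = 0.0922, edgeR's likelihood ratio test). Hypothalamic log2 fold changes were 0.14 for *Glra1* (standard error 0.19) and -0.16 for *Gal* (standard error 0.43), both with overlapping groups. In the dorsal striatum *Glra1* held 1 count in WT and 9 in het libraries, 7 of them in 6b (ratio 5.5, 95% counting interval 0.762 to 241), and *Gal* held 3 in WT and 2 in het libraries (ratio 0.408, interval 0.034 to 3.56). For *Tac2* the values in dorsal striatum and hypothalamus were 0.85 (standard error 0.86) and -0.37 (standard error 0.40), and its difference between ventral striatum and hypothalamus did not pass the threshold (adjusted p = 0.173, edgeR's likelihood ratio test), as was so for *Glra1* (adjusted p = 0.173, same edgeR test) and *Gal* (adjusted p = 0.318, same edgeR test). Each of these differences was called by that test with a certain library left out: *Tac2* without 2a, *Glra1* without 4a and *Gal* without 5a.

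**Figure D5:**
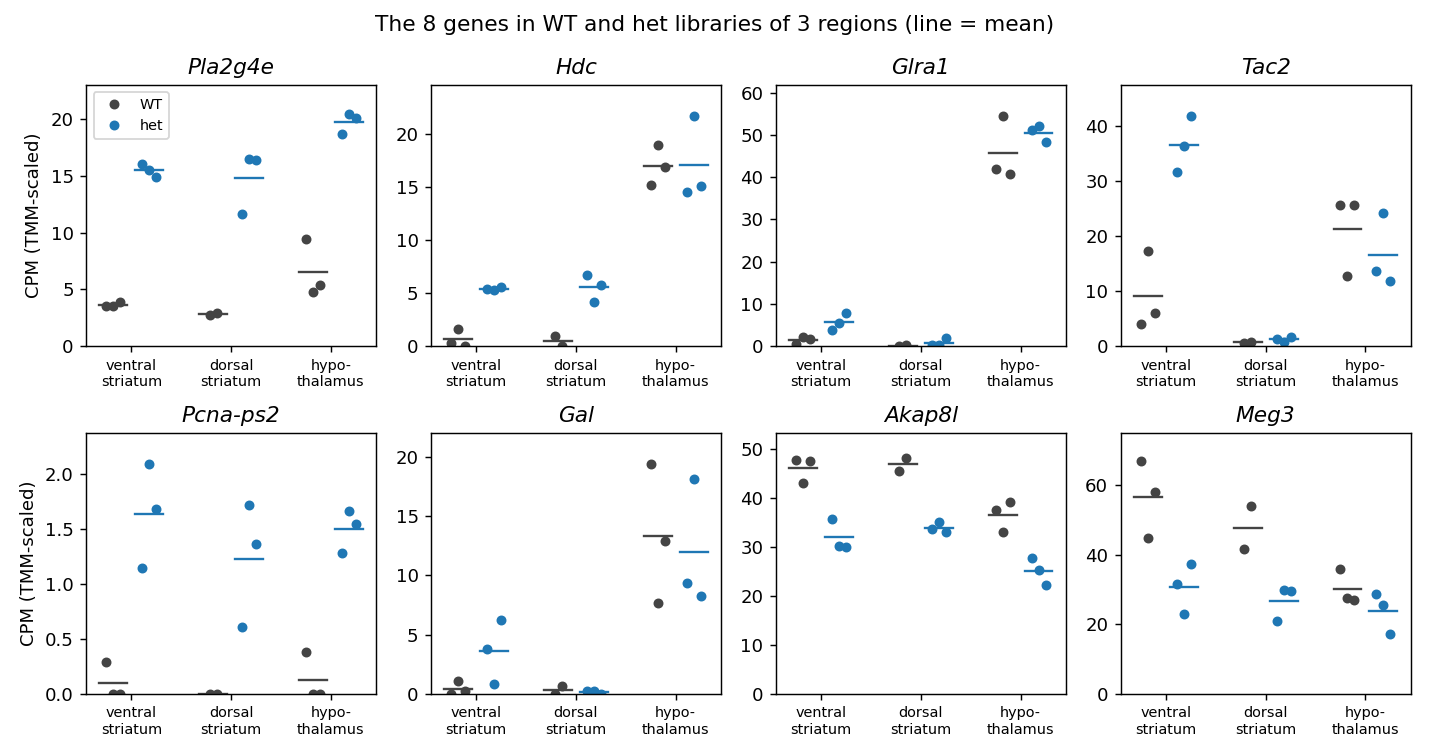
TMM-scaled CPM (vertical axis, from 0) of the 8 called genes in WT and het libraries of the ventral striatum, dorsal striatum and hypothalamus, 1 point per library with lines at the means. *Pla2g4e* is higher in het in each region, while *Hdc* in the hypothalamus overlaps between genotypes (15.2 to 18.9 CPM in WT, 14.5 to 21.7 CPM in het).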

How the data were processed

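The authors made cDNA with the Ovation RNA-Seq System V2 and sequenced single-end 50-base reads, then used Trimmomatic 0.32, Bowtie2 2.2.3 to discard ribosomal reads, STAR 2.3.1z8 on GRCm38, SAMtools 0.1.19 and HTSeq 0.6.1p1 in union mode. The counts they deposited were the starting point here. Reads outside exons, 18.8% to 23.3% of uniquely aligned reads in these 6 libraries, were not used.

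edgeR 4.0.16 in R 4.3.3 fitted all 28 libraries with TMM scaling and a mean for each of 12 groups, and contrasts were tested with glmFit and glmLRT, the functions the authors name. Standard errors come from the fit. Alternatives were the quasi-likelihood test, DESeq2 1.42.0, other scalings, filters and sets of libraries. GENCODE M21 named 28842 of 29878 genes. Genes described are *Hdc*, all called genes, the 10 smallest p in each direction, called or abundant members of lists, the histamine and immediate early lists in full, and the mural members farthest from 0. Members and lists were chosen with earlier results of these data known. The mitochondrial list, the *Pcna* sum, the alternatives for KO counts and DESeq2 for differences between regions were added after seeing the data. A list member that this rule would name is not reported here.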

Additional observations from a re-analysis of the deposited data

Results flagged for a closer look

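The het against WT effect on *Hdc* differed between regions. It was 3.02 on the log2 scale higher in the ventral striatum than in the hypothalamus (standard error 0.61, adjusted p = 1.63e-05, edgeR's likelihood ratio test of the difference itself). All 3 het libraries of the ventral striatum (5.335, 5.25 and 5.53 CPM) were above the 3 WT libraries (0.291, 1.61 and 0 CPM), while the groups overlapped in the hypothalamus. The quasi-likelihood test of edgeR did not call it (lowest adjusted p of that test over all genes 0.118), and DESeq2's Wald test did (adjusted p = 0.03). The cause was not tested.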

How the results depend on the processing

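The count of 8 called genes was 2 with edgeR's quasi-likelihood test, 2 with DESeq2, 4 in a fit of the 8 ventral striatum libraries and 3 to 8 when a library was left out. *Pla2g4e* and *Hdc* were called in every setting run, with log2 fold changes of 2.06 to 2.14 and 2.42 to 5.03; no other gene was. Library size alone gave 6 higher and 0 lower calls, against 6 and 2. No filter, above 5 CPM, and the 6 libraries alone gave 6, 6 and 7 calls, the last with *Ttr* as a gene not called otherwise. *Gal* and *Pcna-ps2* were not tested above 5 CPM. KO against WT fell from 12 calls to 4 (quasi-likelihood), 5 (DESeq2) and 6, 9 and 10 (without 1a, 2a and 3a), alternatives chosen after seeing the data. It stayed at 12 without 4a, 5a or 6a, which are not part of that comparison, and no KO library was left out. The difference from the dorsal striatum gave 0 to 3 calls when a library was left out (3 without 2a). That from the hypothalamus gave 0 by quasi-likelihood, 2 with library size alone, which moved the median of all genes to 0.14, and 1 to 2 with a library left out. Why they moved was not tested. Of 19 genes besides *Hdc* named for their call or small p, 19 kept their direction in every setting run. They were chosen by that call or p in the same libraries, so this count is no test of their direction. For *Pcna-ps2*, *Gm9733* and *Ccbe1* the filter itself set the direction. Of 28 list medians, 20 moved by less than 1 SD between libraries.

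With the mouse number as a replicate block, 0 and 1 genes were called in these 2 differences, as without it. Libraries with the same number correlated at -0.048 to 0.073 across genes after group means were removed, so this check gives no sign that the numbers pair the samples. Whether a number marks the same animal cannot be told from it.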
